A study of Mus musculus with 8 samples.

Results

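The cells described here are mouse kidney macrophages that carry transcripts of the matrix protease genes *Mmp12* and *Mmp13*, of *Plau*, or of 3 further genes found with them. They were selected on measured transcript counts. A cell had to hold at least 3 counts of the complement genes *C1qa*, *C1qb* and *C1qc* summed, and at least 4 counts summed over *Mmp12*, *Mmp13*, *Plau*, *Col14a1*, *Cxcl16* and *Cd36*, a sum called A. A also had to exceed B, the sum over *Slco2b1*, *Agmo*, *Abca9*, *Negr1* and *Lilra5*, genes of resident kidney macrophages. At most 1 count of the dendritic cell genes *Cd209a* and *Clec10a* was allowed, and at most 1 of *Flt1*, *Pax5*, *Themis* and *Slc12a1*, genes of endothelial, B, T and tubule cells. By this rule 6782 cells were found among 90855 that met the limits on genes (over 300), counts (under 20000) and mitochondrial counts (under 25%), out of 120281 barcodes. Since the cells were chosen by these genes, the levels of those genes are given below as a description only. The cells are called Mmp12 and Plau macrophages.

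All mice were C57BL/6, males by the study's methods, and their ages are not given in the sources used here. The control mice (CTRL) had untouched kidneys. The other 6 groups had ischemia-reperfusion injury (IRI), in which the study's methods clamped the vessels of the left kidney and left the other kidney in place, and were examined at day 1, 7 or 14. At each day a group had received vehicle (DMSO) and another entospletinib (Ento), an inhibitor of the kinase SYK, injected before the injury and, in the day 7 and 14 groups, repeatedly after it. Cells of 3 mice were pooled for each condition and live leukocytes were enriched by flow cytometry, so shares refer to the sorted suspension. With 1 pool per condition no difference between conditions could be tested. The cells were divided over 8 sublibraries, and an SD over these measures technical error alone. Intervals are exact 95% intervals and cover counting error only.

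Macrophages clear dying cells and debris after injury and also take part in remodelling of the matrix. *Mmp12* encodes macrophage elastase and *Mmp13* a collagenase. *Plau* encodes urokinase, which turns plasminogen into the protease plasmin. *Cd36* encodes a scavenger receptor for oxidised lipids and apoptotic cells, *Cxcl16* a membrane-bound chemokine that is recognised by CXCR6, and *Col14a1* the chain of a fibril-associated collagen. C1q is made mainly by tissue macrophages, and less by monocytes that have just entered a tissue.

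*Mmp12* and *Mmp13* lie on the same strand of chromosome 9 (GRCm38, GENCODE vM21), *Mmp13* at chr9:7272514-7283331 and *Mmp12* at chr9:7344381-7369499, with 61049 bases between the genes. *Plau* lies on chromosome 14 at 20836660-20843385. Since *Mmp12* and *Mmp13* are given by condition below, the 200 bases before the RefSeq start of each are shown here (RefSeq, GRCm38.p6, plus strand, *Mmp13* at chr9:7272314-7272513 and the upstream start of *Mmp12* at chr9:7344197-7344396), with the motif TGANTCA of AP-1 factors such as FOS and JUN in capitals. This RefSeq start of *Mmp12* lies downstream of the GENCODE start given above, so the last bases of its window fall within the GENCODE gene.
Mmp13: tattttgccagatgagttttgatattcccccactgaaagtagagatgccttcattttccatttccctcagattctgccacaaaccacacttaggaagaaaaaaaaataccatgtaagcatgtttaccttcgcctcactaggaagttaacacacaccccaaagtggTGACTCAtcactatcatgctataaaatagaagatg
Mmp12: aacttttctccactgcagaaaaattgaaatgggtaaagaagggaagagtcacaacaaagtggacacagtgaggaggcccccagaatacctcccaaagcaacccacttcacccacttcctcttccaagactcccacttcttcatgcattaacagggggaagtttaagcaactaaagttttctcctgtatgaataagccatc
The motifs searched, on both strands over 250 bases, were that of AP-1 factors, the PU.1 motif GAGGAAG and the core promoter motif TATAAA. The AP-1 motif was found in the *Mmp13* promoter, starting 35 bases before the gene start, and not in this window of *Mmp12*. A downstream start of *Mmp12* in the same table held it 44 bases before that start. The PU.1 motif was found in the *Mmp12* window shown, 87 bases before the start, and the core promoter motif in that of *Mmp13*, 16 bases before. Of the 32851 promoters of that length, 6.749% held the AP-1 motif, 10.61% that of PU.1 and 12.37% the core promoter motif. The table gave promoters for *Mmp12*, *Mmp13* and *Cd36* of the 6 genes of A. A match of letters describes the sequence and does not show that a factor binds there.

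The label of macrophages was checked against markers that the rule did not use. Summed over 12 macrophage markers, among them *Adgre1* (F4/80), *Csf1r*, *Mertk* and *Lyz2*, the level was 3144 to 5003 CPM (counts of a gene divided by all counts of the cells of a condition and multiplied by 1000000), and at least 11 of the 12 had counts in each condition, with *Cd163* at 0 in the vehicle day 7 and Ento day 14 cells. Summed levels of other types were lower, with 297 to 732 CPM for 10 monocyte markers, 94.5 to 404 CPM for 8 neutrophil markers, 42.5 to 229 CPM for 8 markers of conventional dendritic cells, 9.35 to 31.0 CPM for 7 markers of T and NK cells and 43.1 to 130.5 CPM for 6 endothelial markers. Neutrophil markers were highest at day 1, at 404 CPM with vehicle and 355 CPM with Ento. Loop and distal tubule markers reached 639 CPM in the 96 cells of Ento day 14, against at most 85.6 CPM in the other conditions. In the inflammatory monocytes defined below, the sum of the 12 macrophage markers was 2337 to 4936 CPM. At day 1 it was higher there than here, with vehicle (4936 and 3761 CPM) and with Ento (4383 and 3694 CPM), and it was lower in the other conditions. This sum thus does not set the cells apart from monocytes at day 1.

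The word injury did not hold as a label, because 834 of the cells came from control kidneys. The vehicle pools of days 1, 7 and 14 held 2018, 380 and 1151, and those of Ento 1836, 467 and 96. Median counts per cell were 3458.5 in CTRL, 4226, 5264 and 3755 in the vehicle pools of days 1, 7 and 14, and 2619.5, 3344 and 1633 with Ento. Their summed counts ranged from 222271 (Ento day 14) to 9622884 (vehicle day 1), so values for Ento day 14 are the least precise. A doublet caller marked 24.3% of these cells (10.7 to 37.0% by condition) against 10.1% of all cells within the limits. It marked 18.5% of all cells that passed the C1q and exclusion gates of the rule. Among the resident-gene macrophages defined below it marked 19.3%. Ribosomal protein genes made up 1.5% or more of the counts in 35.9% of the cells of Ento day 1 and in 0.434 to 10.2% of those of the other conditions. At Ento day 1 this held for 29.0% of all cells within the limits, 27.8% of resident-gene macrophages and 41.2% of the remaining gated cells. Across sublibraries, 72 combinations of barcode wells occurred in more than 1 sublibrary, holding 145 of the 6782 cells.

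Cells just inside and just outside the threshold are described here by genes of the rule itself, so how alike they are was not tested. The 804 cells with A of 4 had a median of 2624 counts, and 14.9% had *Mmp12*, 28.6% *Plau* and 73.5% *Cxcl16*. The 765 cells with A of 3 that met the other conditions had a median of 2423 counts, and 12.4% had *Mmp12*, 23.0% *Plau* and 67.5% *Cxcl16*. *Col14a1* was found in 40.7% of the cells with A of 4 and 32.3% of those with A of 3, and the mean of B was 1.33 and 0.868. A was a graded quantity, and the rule takes its upper range. Of all 6782 cells, 48.8% had a count of *Mmp12* or *Mmp13*, 68.2% had counts of 3 or more of the 6 genes, and 10.6% met the rule through *Cxcl16* and *Cd36* alone. By condition, the share with *Mmp12* or *Mmp13* was 76.5% in CTRL, 49.9, 51.8 and 37.7% in the vehicle pools of days 1, 7 and 14, and 38.4, 57.2 and 62.5% with Ento, so it was highest in the control cells.

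The share of all cells lay between 6.22 and 8.97% in control and vehicle kidneys, was highest with Ento at day 1 and was lowest with Ento at day 14. In CTRL it was 7.44% (834 of 11205, 95% interval 6.96 to 7.94%). With vehicle it was 8.97% at day 1 (2018 of 22489, 8.60 to 9.35%), 6.22% at day 7 (380 of 6110, 5.63 to 6.85%) and 6.67% at day 14 (1151 of 17261, 6.30 to 7.05%). With Ento it was 13.1% at day 1 (1836 of 14041, 12.5 to 13.6%), 6.14% at day 7 (467 of 7605, 5.61 to 6.70%) and 0.791% at day 14 (96 of 12144, 0.641 to 0.965%). The sublibraries of Ento day 1 (11.7 to 14.9%) and Ento day 14 (0.512 to 1.22%) did not overlap those of the vehicle pool of the same day (8.06 to 10.3% and 5.62 to 7.46%), while those of day 7 did (4.95 to 7.35% and 4.68 to 7.78%). In log2 ratios of Ento over vehicle these were 0.54 ± 0.20 (SD, n = 8 sublibraries) at day 1, -0.02 ± 0.36 at day 7 and -3.08 ± 0.41 at day 14. The log2 ratios of vehicle over control, which share the control pool, were 0.27 ± 0.15 at day 1, -0.26 ± 0.25 at day 7 and -0.16 ± 0.19 at day 14, in the same direction in 8, 7 and 7 of 8 sublibraries. Fewer macrophages and more cells of other types cannot be told apart in such shares.

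**Figure D1:**
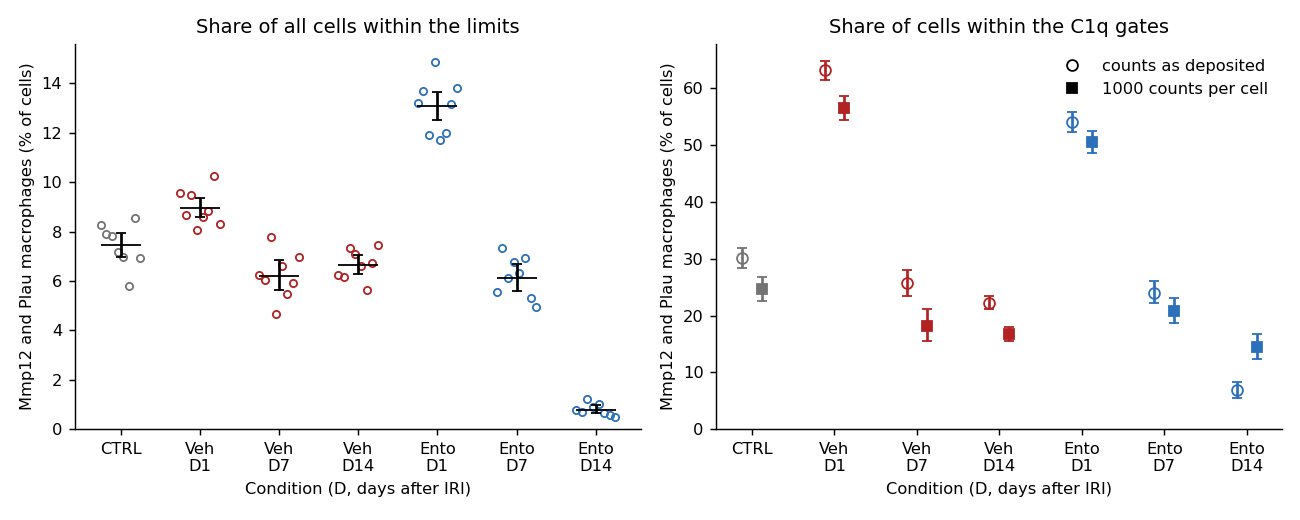
Mmp12 and Plau macrophages by condition. Left, percent of all cells within the limits (open circles, 8 sublibraries; bar, all cells of the condition with 95% interval); right, percent of cells within the C1q and exclusion gates, with counts as deposited (circles) or with every cell thinned to 1000 counts (squares), with 95% intervals. Among C1q cells both day 1 pools sit above 50%, and the intervals of the day 14 pools overlap there after thinning. The panels differ in denominator, and the squares also in depth and thresholds.

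Among cells that passed the C1q and exclusion gates, the share peaked at day 1. It was 30.1% in CTRL, 63.2% in the vehicle pool of day 1, and then 25.7% (day 7) and 22.3% (day 14). Ento gave 54.1%, 24.1% and 6.86% at the same days. The order of vehicle and Ento at day 1 was reversed against the share of all cells, with a log2 ratio of -0.22 in place of 0.54. The cells within the gates were themselves a larger part of the Ento day 1 cells, 3394 of 14041 against 3194 of 22489 with vehicle. At day 14 they were a smaller part with Ento, 1400 of 12144 against 5164 of 17261 with vehicle.

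Depth per cell moved with the day 14 result. All cells within the limits had a median of 933 counts at Ento day 14, against 2391 with vehicle at day 14 and 2055 to 2928 in the other conditions, and the rule asks for a fixed number of counts per cell. With each cell of 2000 or more counts thinned to 2000 and the same rule, the share of all cells was 1.75% (26 of 1488, 1.14 to 2.55%) at Ento day 14 and 4.13% (422 of 10226, 3.75 to 4.53%) at vehicle day 14, a log2 ratio of -1.24. With each cell of 1000 or more counts thinned to 1000 and thresholds of 2 for A and C1q, these shares were 2.60% (144 of 5547, 2.19 to 3.05%) and 3.72% (542 of 14587, 3.41 to 4.04%), a log2 ratio of -0.52. Ento day 14 was lower in both, with counting intervals that did not overlap, while the ranges over sublibraries did overlap, at 0.461 to 3.67% against 3.49 to 4.54% with 2000 counts and 2.08 to 3.17% against 3.14 to 4.61% with 1000. Without thinning, the gated denominator alone gave -1.70. With thinning to 1000 and the gated denominator together, an alternative chosen after seeing the data, the share was 14.5% (144 of 993, 12.4 to 16.8%) at Ento day 14 and 16.7% (542 of 3236, 15.5 to 18.1%) at vehicle day 14, with overlapping intervals and a log2 ratio of -0.21. At day 1 the thinned shares of gated cells were 50.6% with Ento and 56.6% with vehicle, and at day 7 they were 20.8% and 18.2%. The control had 24.6% and stood below both day 1 pools and above both day 14 pools. In the gated C1q cells thinned to 2000 counts, with no threshold applied, the mean of A was 3.44 in CTRL, 6.64, 1.81 and 1.95 in the vehicle pools of days 1, 7 and 14, and 4.38, 2.69 and 1.75 with Ento. The mean of B ran the other way at day 1, at 1.41 with vehicle and 1.33 with Ento against 4.17 in CTRL. At days 7 and 14 B was 2.26 and 2.69 with vehicle and 3.62 and 2.19 with Ento. A and B were thus both below CTRL at the later days.

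Among the proteases, *Mmp12* was high in the control cells and in those of Ento day 14. Its level was 903 CPM in CTRL, 655, 503 and 484 CPM in the vehicle pools of days 1, 7 and 14, and 335, 699 and 999 CPM in those of Ento. At Ento day 14 it rested on 222 counts (95% interval 872 to 1139 CPM, SD over sublibraries 423 CPM). The Ento day 14 cells had a median of 1633 counts against 3458.5 in CTRL, and the rule asks for a fixed 4 counts. How far this moves the CPM of its genes was not tested. *Mmp13*, its neighbour, was at 398 CPM in CTRL, 190.5, 118 and 71.4 CPM after vehicle, and 130.3, 376 and 378 CPM after Ento. Both were lower with vehicle than in CTRL at every day and lower with Ento than with vehicle at day 1 only. *Mmp12* counts were present in 27.1 to 57.8% of the cells by condition, against 2.99 to 27.0% of resident-gene macrophages and 0.502 to 2.45% of cells in a T cell gate (at least 4 counts of *Themis*, *Skap1* and *Cd3e*, at most 2 of C1q), a type that should lack the gene (median counts per cell 3496, 3342 and 2311). *Mmp13* gave 10.6 to 45.8%, 4.18 to 28.2% and 0 to 1.23% in the same order.

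*Plau* and the remaining genes of A followed other courses. *Plau* was lowest in CTRL at 291 CPM, reached 646, 370.1 and 401 CPM after vehicle, and 491, 548 and 315 CPM after Ento. *Cd36* was highest with vehicle at day 1, at 1442 CPM, against 723 CPM in CTRL, 317 and 333 CPM in the later vehicle pools, and 854, 530.2 and 598 CPM after Ento. *Col14a1* was highest with Ento at day 1, at 482 CPM against 355 CPM with vehicle, and was at 235 CPM in CTRL. *Cxcl16* varied least, from 406 CPM (vehicle day 7) to 763 CPM (Ento day 1). *Cd36* counts were also present in 10.8 to 37.0% of cells in an endothelial gate, where *Cd36* is known to be expressed, and *Plau* counts in 1.57 to 12.95%. Leaving out any gene of A kept 4943 (without *Cxcl16*) to 6425 (without *Mmp13*) of the 6782 cells.

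**Figure D2:**
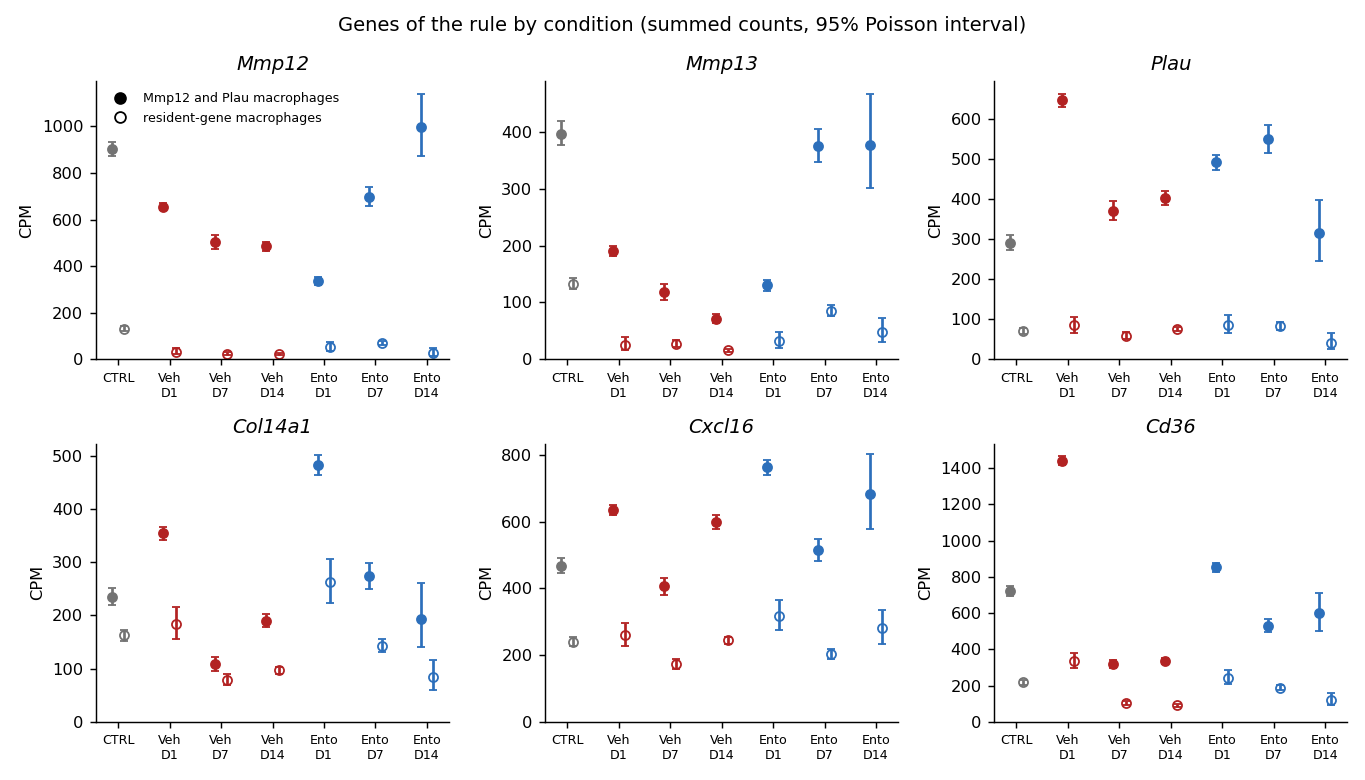
Levels of the 6 genes of A by condition, in CPM of summed counts with 95% Poisson intervals, in Mmp12 and Plau macrophages (filled) and in resident-gene macrophages (open). *Mmp12* and *Mmp13* are high in CTRL, and *Cd36* peaks with vehicle at day 1. The cells were chosen on these genes, so the gap between filled and open points is a consequence of the rule.

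The cells were then set beside resident-gene macrophages, 5846 cells within the same gates with B of at least 4 and over A. Genes of the rule, mitochondrial and ribosomal genes were left out, each ratio was taken relative to the median gene of its condition, and the values describe cells that were sorted by their own counts. Of 2507 genes whose mean over both classes reached 50 CPM in every condition, 38 (1.52%) had a median over the 7 conditions of at least 2-fold higher, in the same direction in all 7, and 0 (0%) of at least 2-fold lower.

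Among genes of at least 100 CPM in the Mmp12 and Plau macrophages, *Ifrd1*, a transcription coregulator, had the highest median log2 ratio at 1.67 (1.14 to 2.25 over the 7 conditions), with median levels of 692 and 166 CPM. The immediate early transcription factor genes *Egr1* and *Atf3* were at 1.52 (0.85 to 2.08) and 1.43 (1.08 to 1.70). Of 26 macrophage transcription factors, 16 were measured and 3 were called higher, *Atf3*, *Junb* (1.17) and *Nr4a1* (1.18), with a list median of 0.22. *Rgs1*, a brake on chemokine receptor signalling, was at 1.51 (1.23 to 2.39), and *Tnfaip3*, which encodes the NF-kB inhibitor A20, at 1.33 (0.99 to 2.07).

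Among 18 chemokines 4 were measured and 3 were higher. *Cxcl2*, which attracts neutrophils, was at 1.49 (1.09 to 2.52), *Ccl4*, which attracts monocytes and T cells, at 1.37 (0.84 to 2.20) and *Ccl9* at 1.01 (0.40 to 1.77). Of 18 genes of cytokines and the inflammasome 6 were measured and 3 were higher, *Cd83* (1.40), *Cd86* (1.12), a costimulatory ligand, and *Nlrp3* (1.08), the sensor of the NLRP3 inflammasome. These 3 are also among the 6 genes that the study names for its later-injury macrophages, a list chosen on these samples. That list had a median of 0.99, with *Clec7a*, *Syk* and *Mrc1* at 0.91, 0.06 and -0.47. For acute-injury macrophages the study names *Creb5*, *Stab1*, *Dab2*, *Axl* and *Lilrb4*, besides genes that the rule here uses. Taken as 6 genes, with *Lilrb4a* and *Lilrb4b* for *Lilrb4*, they had a list median of 0.27. *Lilrb4b*, an inhibitory receptor, was called higher (1.18), and *Lilrb4a*, *Creb5*, *Dab2*, *Axl* and *Stab1* were at 0.75, 0.53, 0.01, -0.02 and -0.48.

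Of 20 lipid-associated macrophage genes 12 were measured, with a median of 0.38, and *Cd9* (1.22) and *Lgals3* (1.21) were called higher. *Lpl*, lipoprotein lipase, was at 0.73 (0.32 to 1.95) and *Apoe* at -0.29. The cytoskeletal genes *Myo1e* and *Clic4* were at 1.22 and 1.21. No gene of MHC class II (7 of 7 measured, median 0.14), SYK signalling (17 of 22, median 0.03), scavenging and efferocytosis (9 of 18, median -0.02) or the resident macrophage list (6 of 15, median -0.06) was called. The genes with the lowest ratios, *Lst1* (-0.95), *Dse* (-0.76), *Ulk2* (-0.73) and *Selenop* (-0.72), which encodes a selenium transport protein, did not reach 2-fold.

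**Figure D3:**
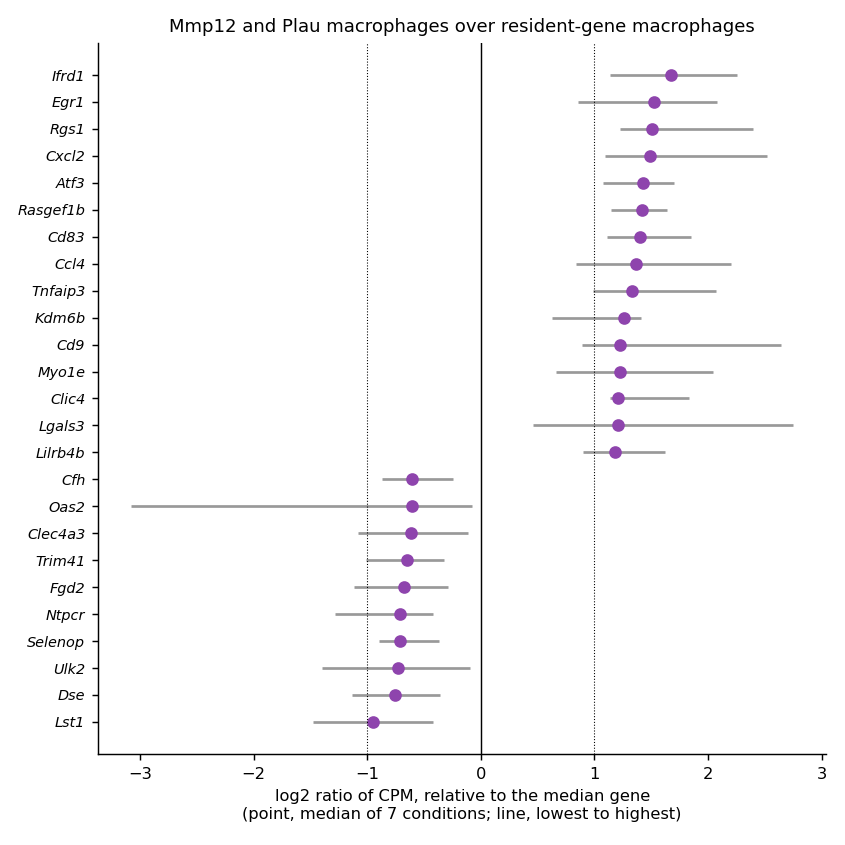
Log2 ratio of CPM in Mmp12 and Plau macrophages over resident-gene macrophages for the 15 genes with the largest median among those of at least 100 CPM and the 10 with the smallest median. Points are medians over 7 conditions, lines run from the lowest to the highest condition and dotted lines mark 2-fold. All 15 higher genes lie to the right of 0 in every condition, and none of the 10 lower genes has a median past 2-fold.

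Against inflammatory monocytes (7538 cells with at least 4 counts of *Ly6c2*, *Vcan*, *F13a1* and *Ccr2* and at most 2 of C1q), 126 of 2447 genes (5.15%) were called higher and 87 (3.56%) lower. Both classes were sorted by their own counts, so these values are a description. Genes of the monocyte gate were not left out, and *Ccr2*, *Vcan* and *F13a1* are among those called lower, as the gate itself brings about. *Itga9*, an integrin subunit, was at 2.90, the transcription factor gene *Creb5* at 2.32, the scavenger receptor gene *Stab1* at 2.30 and *Tgfbr1*, a receptor for TGF-beta, at 2.20. Of the 10 scavenging genes measured 5 were higher, with a median of 0.89, and of the 12 lipid-associated genes 4, *Lpl*, *Apoe*, *Ctsb* and *Lipa*, with a median of 0.82. *Thbs1* (-2.69) and *Fn1* (-2.27), genes of matrix proteins, and *Plaur* (-1.69), the urokinase receptor, were lower.

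After injury with vehicle, the Mmp12 and Plau macrophages at day 1 differed from the control ones in more genes than at day 7 or 14. A gene was called when its ratio lay at least 2-fold from the median gene and in that direction in at least 7 of 8 sublibraries. Of 3394 genes 184 (5.42%) were called higher at day 1 and 150 (4.42%) lower. At day 7 there were 180 (6.04%) higher and 63 (2.11%) lower of 2980, and at day 14 166 (5.24%) higher and 58 (1.83%) lower of 3168. All 3 comparisons share the control cells. Log2 ratios below are relative to the median gene, with SD over 8 sublibraries.

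Of 18 genes of growth factors and matrix, 6, 7 and 6 were measured at days 1, 7 and 14. Of these 4, 4 and 2 were called higher and 0 lower, with list medians of 1.44, 1.17 and 0.86. *Fn1* had the highest ratio of the named genes at each day. *Fn1*, fibronectin, was at 6.33 CPM in CTRL and at 392, 824 and 578 CPM in the vehicle pools of days 1, 7 and 14, log2 ratios of 5.74 ± 1.91, 7.34 ± 0.84 and 6.58 ± 1.55. *Thbs1*, thrombospondin 1, was at 27.1 CPM in CTRL and at 780.0, 446 and 373 CPM with vehicle. The injured pools stood far above CTRL for both genes in 8 of 8 sublibraries. In resident-gene macrophages the same ratios were 4.18, 4.91 and 4.27 for *Fn1* and 4.07, 3.27 and 3.20 for *Thbs1*, and the difference between the classes was not tested. They were also above 0 in the T cell gate, at 3.47, 3.73 and 1.87 for *Fn1* and 3.13, 3.17 and 1.86 for *Thbs1*. How much RNA from outside the cells adds to these ratios was not tested. *Fn1* counts were found in 321 of the 2018 cells at day 1, 108 of 380 at day 7 and 268 of 1151 at day 14, with at most 5.91% of the counts from any 1 cell. The monocyte genes *Vcan* (4.79) and *F13a1* (4.20) were called higher at day 1 as well, with 2.87 and 2.45 in the T cell gate and 3.87 and 3.28 in the endothelial gate. The 10 monocyte markers summed to 732 CPM at vehicle day 1 and 338 CPM in CTRL, and their part in these ratios was not tested.

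Heme and iron genes were higher at day 1 with vehicle, with 6 called higher and 1 lower of 9 measured and a list median of 1.80. *Hmox1*, heme oxygenase 1, went from 93.5 to 452 CPM (log2 ratio 2.10 ± 0.47), and the ferritin genes *Fth1* and *Ftl1* from 862 to 3527 CPM and from 625 to 2452 CPM (1.86 ± 0.15 and 1.80 ± 0.14). At days 7 and 14 *Hmox1* was at 96.9 and 92.2 CPM, near the control. *Slc7a11*, the cystine transporter, was higher at day 1 (3.71 ± 0.75) and day 7 (4.09 ± 0.64), but its ratios were also 2.59 and 3.42 in the T cell gate and 2.95 and 4.31 in the endothelial gate. In resident-gene macrophages they were 3.58 and 4.04. *Txnrd1*, thioredoxin reductase, was higher at all 3 days (1.68, 1.80 and 1.48).

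Glycolysis and hypoxia genes were higher at each day, with 5 of 8 measured at day 1, 4 of 6 at day 7 and 3 of 6 at day 14, and with 0 lower. *Pkm* (2.10 ± 0.33), *Gapdh* (1.79 ± 0.44) and *Ldha* (1.52 ± 0.46), enzymes of glycolysis, were called at day 1. *Hif1a*, the hypoxia-inducible factor, was called at all 3 days (1.27, 1.41 and 1.10), and *Hk2*, hexokinase 2, at days 7 and 14 (1.92 and 1.19). *Vegfa*, an angiogenic factor, went from 5.76 CPM to 125 CPM at day 7 (4.75 ± 1.56), with ratios of 1.68 in the T cell gate and 1.37 in the endothelial gate.

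Genes of proteolysis other than those of the rule differed as well. Of 10 matrix proteases and inhibitors measured at day 1, 4 were called higher, *Adam8*, a membrane protease (14.4 CPM in CTRL and 282 CPM with vehicle, 4.10 ± 0.55), *Mmp14*, a membrane-bound matrix protease (2.04 ± 0.48), and the cathepsin genes *Ctsd* (2.03 ± 0.45) and *Ctsl* (1.39 ± 0.45). The ratio of *Adam8* was 4.37 in resident-gene macrophages, 1.59 in the T cell gate and 2.37 in the endothelial gate. *Timp3*, an inhibitor of metalloproteinases, was lower at day 1 (-1.50) and day 14 (-1.17). *Ctsd* was called higher at all 3 days. *Plaur*, the receptor that holds urokinase at the cell surface, was at 20.7 CPM in CTRL and at 89.8 and 110.8 CPM in the vehicle pools of days 1 and 7 (1.93 ± 0.70 and 2.76 ± 0.94), and *Lrp1*, an endocytic receptor that clears protease complexes, was called higher at the same days (1.60 and 1.26).

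Chemokines were higher at day 1 in 7 of 8 measured, with a list median of 1.39. The 8 neutrophil markers summed to 96.4 CPM in CTRL and 404 CPM at vehicle day 1, with *Camp* at 0 in both, *Ly6g* at 0 in CTRL and *S100a9* called higher (3.24 ± 0.83), and their part in the ratios of chemokine and cytokine genes was not tested. *Cxcl2* went from 79.4 CPM in CTRL to 779.6, 321 and 206 CPM at days 1, 7 and 14 (3.12, 2.36 and 1.48), and *Ccl2*, which attracts monocytes, from 10.4 CPM to 146 CPM at day 1 (3.62 ± 0.83). *Ccl6* and *Ccl9* were called at all 3 days, whereas *Ccl3* and *Ccl4* were called at day 1 alone. Among cytokine and inflammasome genes, *Nlrp3* and *Ptgs2*, the prostaglandin synthase COX-2, were called higher at all 3 days. *Nlrp3* was at 112 CPM in CTRL and at 300.5, 309 and 354 CPM with vehicle. *Ptgs2* was at 34.8 CPM in CTRL and at 204, 217 and 205 CPM.

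MHC class II genes were lower at day 1 and were not called later. Of 7 measured 6 were called lower at day 1, with a list median of -1.41 and *H2-DMa* (-0.21) as the exception, and 0 of 6 at day 7 and 0 of 7 at day 14. *Ciita*, the transactivator of MHC class II, was at 649 CPM in CTRL, 73.6 CPM at day 1 (-3.31 ± 0.26), 352 CPM at day 7 (-0.54) and 449 CPM at day 14 (-0.43). *Cd74*, the invariant chain, was at 5790.4, 3043, 3654 and 5517 CPM in the same order. Conventional dendritic cell markers summed to 229 CPM in the CTRL cells and 42.5 CPM at vehicle day 1, where *Clec9a* (-3.49) and *Dpp4* (-2.51) were also called lower. Resident-gene macrophages had similar ratios at day 1, -3.05 for *Ciita* and -3.35 for *Clec9a*. The T cell gate had -1.73 and -1.69, and the endothelial gate -1.15 and -1.91.

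Other genes differed from CTRL at the later days. *Nr4a3* and *Nr4a1*, orphan nuclear receptors, were called higher at days 7 and 14 (2.39 and 3.29, 1.05 and 1.16) and not at day 1. At day 14 *Nr4a3* was at 3.24 in resident-gene macrophages, 1.23 in the T cell gate and 3.42 in the endothelial gate. *Fosl2*, an AP-1 factor, was higher at all 3 days (1.54, 2.73 and 3.01). *Apoe*, *Lyz2*, *Mertk* and *Mrc1* were called higher at days 7 and 14. *Abca1*, the cholesterol exporter, was higher at all 3 (1.23, 2.43 and 2.54), and *Pparg*, a nuclear receptor of lipid metabolism, was lower at days 7 and 14 (-1.36 and -1.52). *Fkbp5*, a glucocorticoid target, was lower at all 3 days, at 315 CPM in CTRL and 159, 67.7 and 66.3 CPM with vehicle. At day 7 its ratio was -1.87 here, -2.62 in resident-gene macrophages, -1.24 in the T cell gate and -1.44 in the endothelial gate. *Acsm2*, a gene of tubule cells, was lower than in CTRL here and in T cells as well (log2 ratio at day 1 -2.89 here and -3.03 in T cells).

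**Figure D4:**
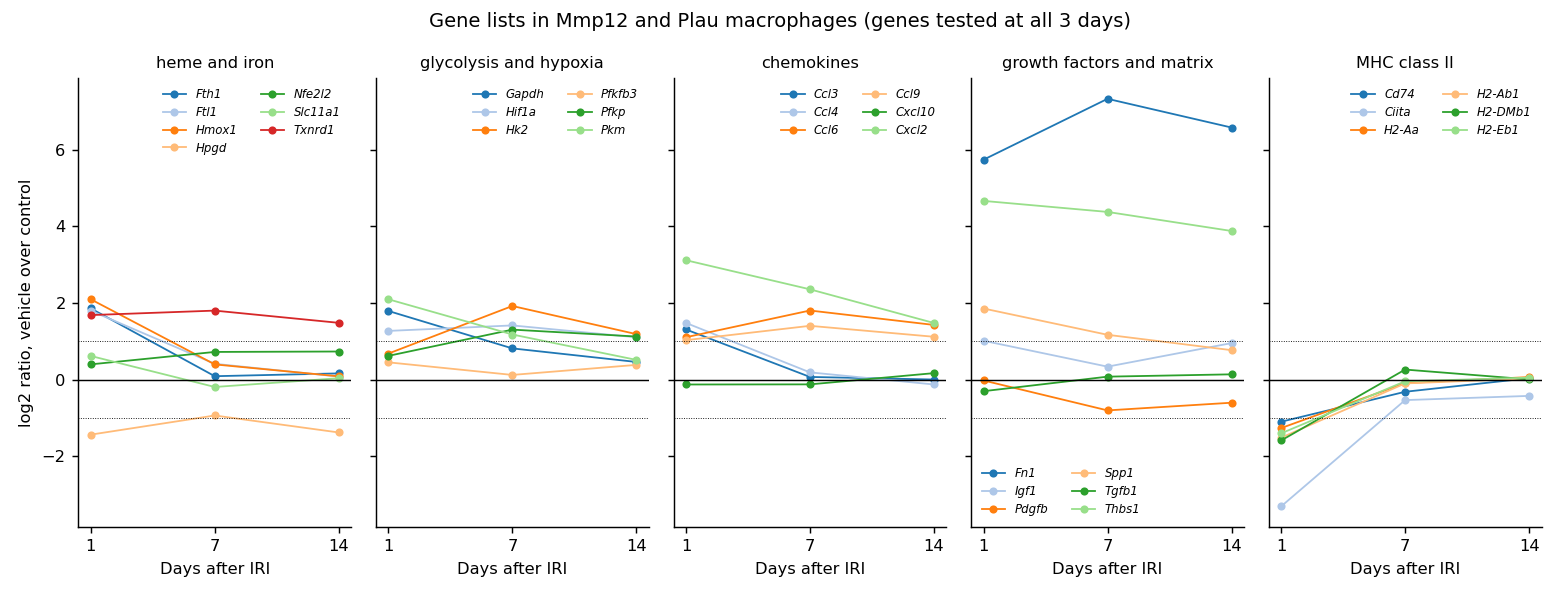
Log2 ratio of vehicle over control, relative to the median gene, in Mmp12 and Plau macrophages for 5 gene lists at days 1, 7 and 14 (lines join the days of a gene, dotted lines mark 2-fold, genes measured at all 3 days). Ferritin genes, *Hmox1* and *Pkm* are highest at day 1, *Fn1* and *Thbs1* stay above 3 at all days, and the 6 MHC class II genes shown lie below -1 at day 1 and within 2-fold of the control later.

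Ento was then set against vehicle, day by day. At day 1 few genes differed, with 10 of 3531 (0.283%) higher and 20 (0.566%) lower, and with 8 and 27 under TMM scaling without centring on the median gene. The excess of lower genes depended on the setting, with 10 higher and 6 lower in cells of 2000 to 6000 counts and 9 and 8 at 100 CPM or more. The lower genes included several that were higher in the vehicle cells than in CTRL. *Fn1* was at 79.6 CPM with Ento and 392 CPM with vehicle (log2 ratio -2.18 ± 0.84), *Thbs1* at 189 and 780.0 CPM (-1.92 ± 0.51), *Vcan* at 27.0 and 121 CPM (-2.04 ± 0.79) and *F13a1* at 56.6 and 164 CPM (-1.41 ± 0.90). All 4 were lower in 8 of 8 sublibraries. The ratios of *Fn1*, *Thbs1* and *Vcan* were -2.45, -2.47 and -1.09 in resident-gene macrophages, -1.12, -1.21 and -0.51 in the endothelial gate and -0.60, -0.51 and -0.37 in the T cell gate. *Slc40a1*, the iron exporter ferroportin, was at 37.2 and 124 CPM (-1.61 ± 0.63), and *Cd80*, a costimulatory ligand, at 36.9 and 104 CPM (-1.38 ± 0.41). *Ptgs2* (-1.34), *Nr4a3* (-1.28), *Slc7a11* (-1.05), *Ccl9* (-1.05) and *Ccl6* (-1.02) were also called lower. Monocyte markers summed to 456 CPM with Ento and 732 CPM with vehicle, and their part in these ratios was not tested.

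Genes with the highest ratios at day 1 with Ento also had high ratios in other cell types. *Peak1*, a pseudokinase gene, had 4322 CPM with Ento and 594 CPM with vehicle (2.98 ± 0.31), with log2 ratios of 3.09 in resident-gene macrophages, 3.17 in T cells and 2.18 in endothelial cells. *Rpph1*, the RNA of RNase P, and *Il31ra* were at 2.88 ± 0.29 and 2.59 ± 0.26, with 3.06 and 3.13 in T cells. *Cd72* (1.12 ± 0.20), an inhibitory receptor, had 1.06 in T cells and 1.90 in endothelial cells. *Spn*, CD43, was at 203 and 107 CPM (1.04 ± 0.13), with -0.17 in T cells and 1.40 in resident-gene macrophages.

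At day 7 more genes were lower than higher with Ento, with 91 of 3039 genes lower (2.99%) and 16 (0.526%) higher. *Fn1* was at 138 and 824 CPM (-2.96 ± 1.14), *Thbs1* at 85.4 and 446 CPM (-2.77 ± 0.67) and *F13a1* at 17.1 and 96.4 CPM (-2.86 ± 2.02). *Vegfa* was at 31.3 and 125 CPM (-2.37 ± 1.45) and *Slc7a11* at 29.0 and 117 CPM (-2.39 ± 1.22). For each of *Fn1*, *Thbs1* and *F13a1* the direction was the same in 8 of 8 sublibraries. The same ratios in resident-gene macrophages were -2.89, -2.62 and -1.21. In the T cell gate those of *Fn1*, *Thbs1* and *F13a1* were -4.55, -3.26 and -3.37, and in the endothelial gate -2.10, -1.09 and -1.25, below 0 as well. How much RNA from outside the cells adds to the ratios of the 5 genes of this paragraph was not tested.

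Genes of several lists were lower with Ento at day 7. Of 10 cytokine and inflammasome genes measured 3 were lower and 0 higher at day 7 (median -0.64), among them *Ptgs2* (217 to 81.4 CPM, -1.80 ± 0.58) and *Nlrp3* (309 to 158 CPM, -1.36 ± 0.53). Of 20 transcription factors 5 were lower and 0 higher (median -0.14), *Fosl2* (-1.91), *Bhlhe40* (-1.73), *Nr4a3* (-1.59), *Nr4a1* (-1.22) and *Cebpb* (-1.03). Of 20 genes of SYK signalling, 2 were lower and 0 higher (median -0.05), *Clec4e* (-2.35), the receptor Mincle, and *Clec4n* (-1.58), Dectin-2, which both signal through SYK. For vehicle over control at day 7 these 2 genes were at 3.98 and 3.53 here. They were also at 2.48 and 2.89 in the T cell gate and 3.51 and 2.89 in the endothelial gate. How much RNA from outside the cells adds to their ratios was not tested. *Syk* itself was not called at any day. *Plaur* (-2.03 ± 1.12), the receptor for the product of *Plau*, and *Adam8* (-2.14 ± 1.11), a membrane protease, were lower, and so were *Cd14* (-1.42) and *Cxcl2* (-1.29). MHC class II genes were not called (median 0.18).

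Higher at day 7 were, among others, *Tpst1* (1.32 ± 0.70), *Spn* (1.29 ± 0.58), *Hpgd* (1.28 ± 0.72), which degrades prostaglandins, and *Ccnd1* (1.16), a cyclin. *Hpgd* had 313 CPM with Ento and 98.6 CPM with vehicle, against 240 CPM in CTRL, and its ratio was 0.84 in the T cell gate and 3.23 in the endothelial gate. *Spn* was higher with Ento than with vehicle at both day 1 and day 7. Depth per cell was higher with vehicle at day 7 (5264 against 3344 counts), and with cells of 2000 to 6000 counts alone, 66 genes were called at day 7, of which 51 were among the 107 above, and 16 at day 1, of which 12 were among the 30.

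**Figure D5:**
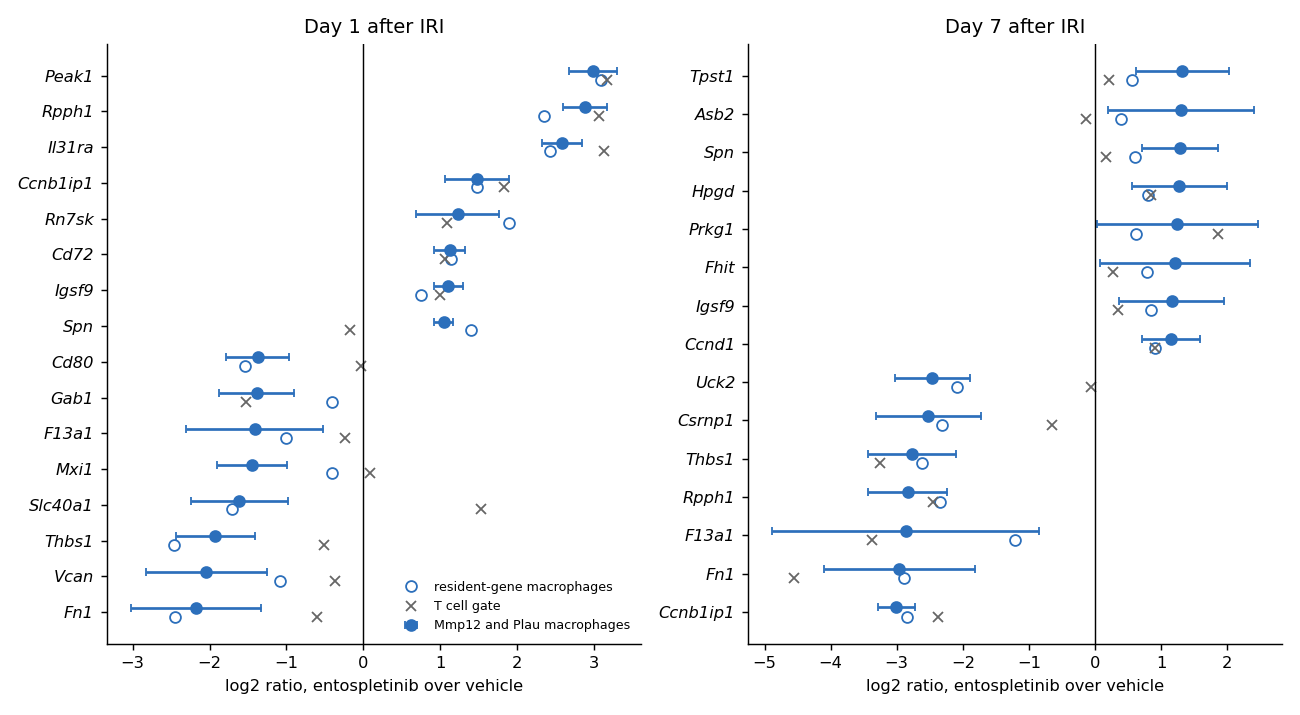
Log2 ratio of entospletinib over vehicle at day 1 (left) and day 7 (right) for named genes in Mmp12 and Plau macrophages (filled, with SD over 8 sublibraries), in resident-gene macrophages (open) and in the T cell gate (crosses). *Peak1*, *Rpph1* and *Il31ra* have ratios above 2.5 in both the Mmp12 and Plau macrophages and the T cell gate at day 1, and *Fn1* and *Thbs1* are lower with Ento at both days.

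At day 14 the comparison rested on 96 Ento cells with 222271 counts. Of 3173 genes 38 (1.2%) were called higher and 88 (2.77%) lower, a split that moved to 14 and 193 under TMM scaling without centring. *Thbs1* was again lower, with 19 counts (85.5 CPM) against 373 CPM with vehicle (-2.08 ± 2.75), and so were *Fosl2* (94.5 and 333 CPM, -1.78), *Ptgs2* (58.5 and 205 CPM, -1.75) and *Nlrp3* (166.5 and 354 CPM, -1.06). *Fn1* was at 423 and 578 CPM (-0.44) and was not called. *Fkbp5* was higher, with 436 and 66.3 CPM (2.73 ± 1.00), in 48 of the 96 cells, and its ratio was 3.63 in resident-gene macrophages, 1.04 in the T cell gate and 1.72 in the endothelial gate. The ratios of *Fosl2* and *Ptgs2* in the T cell gate were -1.44 and -1.84, near those here. *Spp1*, osteopontin, was called higher with 1480.2 CPM, but 63.2% of its counts came from 1 cell, as did 59.1% of those of *Atp1b1*, a sodium pump subunit of tubule cells. With cells of 2000 to 6000 counts alone, 31 Ento cells remained and 180 genes were called, of which 53 were among the 126 above. Of these 126, 65 were also called without called doublets, which left 80 Ento and 725 vehicle cells and 120 calls, and 65 with A of at least 6, which gave 122 calls.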

How the data were processed

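Single kidney cells of 7 conditions were measured in 8 samples, each a mixture of all conditions. The authors ran the Parse pipeline on their reads, against mm10 per the labels, and the annotation release is not given in the sources used here. The deposited matrix holds counts, whole numbers of transcripts per gene and cell with no normalization. Its sums equalled the deposited cell table for 120281 of 120281 barcodes. The condition of a cell came from that table, and sublibraries were not matched to single samples. The members and the gene lists were chosen with earlier results of these data known.

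Counts of all cells in the same class and condition were summed. Genes whose mean CPM reached 50 were compared as log2 ratios after adding 0.5 counts, minus the median gene, and called past 2-fold in at least 7 of 8 sublibraries. No p-value was computed, since each condition was 1 pool. In simulated counts for Ento over vehicle, 3-fold changes were called for 100% of genes at days 1 and 7 and 95.5% at day 14. At day 14, 3 of 93 genes changed 1.5-fold and 6 of 3018 unchanged genes were also called past 2-fold (0 of either at days 1 and 7). The simulated counts held counting error alone, with no differences between cells, doublets or RNA from outside the cells. These rates therefore do not give the error of calls in the measured counts. Cells called doublets (score over 0.5 among 30 neighbours) were kept. Named beyond the lists were, per comparison, the 8 highest and 8 lowest called genes with 30 or more counts, and against resident-gene macrophages the 15 highest (of at least 100 CPM) and the 10 lowest. Alternatives were denominator, thinning, thresholds, limits, doublets, TMM (edgeR 4.0.16), CPM minimum, counts added and sublibraries left out. Work was done in Python 3.11.15 (scipy 1.17.1, scikit-learn 1.9.0). In cells within the limits, 15204925 to 77403258 counts were summed per condition. Some genes that met the naming rule are not reported here.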

Additional observations from a re-analysis of the deposited data

Results flagged for a closer look

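The share of Mmp12 and Plau macrophages moved in opposite ways with Ento at 2 of the days, in every sublibrary. At day 1 the log2 ratio of Ento over vehicle was 0.54 ± 0.20 (SD, n = 8 sublibraries), and at day 14 it was -3.08 ± 0.41. The difference between the days was not tested, as each condition was 1 pool. The opposition did not hold among cells within the C1q and exclusion gates, where the ratios were -0.22 and -1.70, and -0.16 and -0.21 after thinning to 1000 counts.

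2 of the named genes also had opposite ratios of Ento over vehicle at days 1 and 7 in all 8 sublibraries, and this difference was not tested either. *Ccnb1ip1* was at 161.9 CPM with Ento and 63.0 CPM with vehicle at day 1 (log2 ratio 1.48 ± 0.41), and at 85.4 and 526.6 CPM at day 7 (-3.01 ± 0.28). Its ratios were 1.82 in T cells, 1.45 in endothelial cells and 1.48 in resident-gene macrophages at day 1, and -2.38, -2.59 and -2.84 at day 7. *Rpph1*, the RNA of RNase P, was at 2.88 ± 0.29 at day 1 and, with 38.7 and 212.8 CPM, at -2.84 ± 0.60 at day 7. Its ratios were 3.06, 2.94 and 2.35 in the same 3 classes at day 1 and -2.45, -1.70 and -2.35 at day 7. Both genes differed in the same direction in all 4 cell classes at each day.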

How the results depend on the processing

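The ratios of shares depended on the denominator and on depth per cell. Named genes kept their direction under every alternative run (1153 of 1185 values within 1 SD of the value reported, 32 beyond it, 0 reversed). They had been chosen for the largest ratios in the reported run, and several alternatives left their counts unchanged, so reversals were unlikely from the start. The SD was also wide for some genes, 2.75 for *Thbs1* at day 14 of Ento over vehicle. All values below are log2 ratios of shares, in the order of days 1, 7 and 14, and the cause of each move was not tested. Reported for Ento over vehicle were 0.54, -0.02 and -3.08, and for vehicle over control 0.27, -0.26 and -0.16. With cells within the C1q and exclusion gates as the denominator, Ento over vehicle was -0.22 (reversed) at day 1 and -1.70 at day 14, and vehicle over control 1.07 at day 1 and -0.43 at day 14. Thinned to 2000 counts, Ento over vehicle was 0.61 (reversed) at day 7 and -1.24 at day 14, and vehicle over control 0.85 at day 1 and -0.82 at day 7. Thinned to 1000 counts, Ento over vehicle was 0.97, 0.46 (reversed) and -0.52, and vehicle over control 0.60 at day 1 and -0.56 at day 7. Thinned to 1000 counts among gated cells, an alternative chosen after seeing the data, Ento over vehicle was -0.16 (reversed), 0.19 (reversed) and -0.21, and vehicle over control 1.20 at day 1 and -0.56 at day 14. With A of at least 6, Ento over vehicle was 0.18, 0.031 (reversed) and -3.74, and vehicle over control 0.42 at day 1 and -0.44 at day 14. At day 14 Ento over vehicle was -2.64 with A of at least 3, -2.34 with A from *Mmp12*, *Mmp13*, *Plau* and *Col14a1* and -2.57 with more than 500 genes, and vehicle over control at day 1 was 0.50 with those 4 genes. Without called doublets Ento over vehicle was 0.76 at day 1 and 0.14 (reversed) at day 7, and with ribosomal protein genes under 1.5% it was 0.091 (reversed) at day 7. Leaving out each sublibrary in turn gave 0.49 to 0.57, -0.091 to 0.052 and -3.18 to -2.98 for Ento over vehicle, with a change of sign at day 7 without sublibrary 1 (0.0026), 3 (0.035), 7 (0.0011) or 8 (0.052), and 0.23 to 0.29, -0.30 to -0.21 and -0.20 to -0.12 for vehicle over control. The ratio at day 7 had no stable sign.

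Counts of genes past 2-fold followed the CPM minimum. For Ento over vehicle (30, 107 and 126 reported) there were 56, 193 and 244 at 20 CPM and 17, 47 and 50 at 100 CPM. For vehicle over control (334, 243 and 224) there were 635, 443 and 397, and 177, 128 and 124, and over resident-gene macrophages (38) 69 and 24. Cells of 2000 to 6000 counts gave 16 at day 1 and 66 at day 7 for Ento over vehicle, and TMM without centring gave 207 at day 14. Leaving out a sublibrary, with 6 of the other 7 in the same direction, gave 28 to 32, 99 to 129 and 135 to 169, 330 to 344, 229 to 259 and 225 to 235, and 36 to 41. The median gene lay at -0.12, 0.39 and -0.0036 for Ento over vehicle and at 0.17, -0.34 and -0.11 for vehicle over control before centring. No paired analysis was possible because each condition was 1 pool. The Ento day 14 cells were the fewest, with 222271 counts in 96 cells, which limits the precision of their values.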
